A study of Mus musculus with 9 samples.

Results

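Mitochondrial fatty acid oxidation and ketone body metabolism was followed through 34 listed genes in the colon epithelium of mice fed dietary heme. For each gene the probeset, a group of array probes summarised to 1 value, with the highest mean over all arrays was taken. Of the 34 genes, 32 were measured by a probeset annotated to 1 gene, and 31 were bright enough to be tested, among 19938 genes measured and 14953 tested in all. Cpt1b shared its probeset with another gene symbol, Ucp2 was not analysed here, and Ucp3 lay below the brightness filter. Chromosomes, starts and ends below are those of GRCm38.p6.

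The series asked which responses of the colon to dietary heme come at once and which are delayed. The heme group received a high-fat diet with 40% of its energy from fat, to which 0.2 µmol heme per g of diet had been added, for 2, 4, 7 or 14 days. The control group received that same 40% fat diet without heme, and was sampled on days 0, 2, 4, 7 and 14. All animals were male C57BL/6J mice aged 9 to 11 weeks, and all of them, heme mice included, first spent 1 week on the control diet. RNA of colonic scrapings was pooled by diet and day, so each of the 4 heme and 5 control arrays carried RNA of 4 mice, or of 3 mice in the control pool of day 2. No diet and day had more than 1 pool. Pools of different days therefore stood in as replicates, and the p-values measure the spread between such pools and not between mice.

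Long-chain fatty acids enter mitochondria as carnitine esters. Inside, fatty acids are shortened in a repeating spiral of dehydrogenation, hydration, a further dehydrogenation and thiolysis. Electrons from the first dehydrogenation of this spiral pass through the electron transfer flavoprotein to the respiratory chain. The acetyl-CoA released feeds the citric acid cycle or is turned into ketone bodies. In the colon epithelium, short-chain fatty acids from the gut bacteria, butyrate above all, are the usual fuel. Peroxisome proliferator-activated receptors (PPARs) are known to switch on many genes of fatty acid oxidation.

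The promoter sequences of the members were examined for the DR1 element, the form of site that PPARs bind together with the retinoid X receptor. A RefSeq promoter window of 300 bases (250 before to 50 after an annotated start of the gene) was at hand for 29 of the 34 members, 31 windows in all, and for 8 of the 9 members that were higher under heme. DR1 was searched on both strands as 2 copies of the half-site AGGTCA in the same direction with any 1 base (N) between them, at most 2 mismatches being allowed. The 5 member windows holding such a match are shown with 8 bases on either side, the matching bases in capitals, each read 5′ to 3′ along its matching strand.

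Slc25a20: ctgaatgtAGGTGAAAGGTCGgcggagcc
Echs1: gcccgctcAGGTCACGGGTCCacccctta
Etfa: ttgggagtAGGGCAAAGGTAAgggtgtgc
Ucp3: tcagaattAGGTTTCAGGTCAgctggtgc
Pcca: cttgacgaGGGTGAGAGGTCAgcagccgg

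Counting positions from 1 at the 5′ end of the motif, the Slc25a20 stretch (chr9:108662134-108662162, plus strand) differed from it by C5G and A13G. The Echs1 stretch (chr7:140116484-140116512, minus strand) differed by A8G and A13C, and the Etfa stretch (chr9:55512300-55512328, plus strand, opposite to the gene) by T4G and C12A. The Ucp3 stretch (chr7:100472932-100472960, plus strand) carried C5T and A6T, and the Pcca stretch (chr14:122534319-122534347, plus strand) carried A1G and C5G. The Pcca window belongs to a second annotated start that lies inside the gene, far downstream of the first. Only the Slc25a20 match belonged to a member that was higher under heme, so 1 of 8 windows of such members held a match, against 4 of 23 windows of the other members. Across all 32851 RefSeq mouse windows the share was 3.86%. These are matches of letters and say nothing on whether a receptor was bound.

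Hadha and Hadhb, the subunits of the mitochondrial trifunctional protein, moved together and lie head to head, so the stretch between them is shown. Hadha starts at position 30154980 of chromosome 5 on the minus strand and Hadhb at 30155253 on the plus strand, 273 bases apart. The 250 bases before the Hadhb start (chr5:30155003-30155252, plus strand) have both GC boxes (GGGCGG, the letters bound by Sp1) in capitals.

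Hadha-Hadhb: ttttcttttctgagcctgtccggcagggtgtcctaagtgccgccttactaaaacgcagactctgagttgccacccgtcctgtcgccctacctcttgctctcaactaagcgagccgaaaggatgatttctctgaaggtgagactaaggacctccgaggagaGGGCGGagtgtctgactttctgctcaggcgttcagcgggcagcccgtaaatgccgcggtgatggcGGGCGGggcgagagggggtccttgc

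This stretch was 58.8% G or C, and held 2 GC boxes, 0 DR1 matches, 0 CCAAT boxes (CCAAT) and 0 TATA boxes (TATAAA), counted on both strands. GC boxes stood in 7 of 8 windows of members higher under heme and in 12 of 23 windows of the others, against 35.7% of all windows. The Hadha and Hadhb windows are both among the 8 and largely cover the same bases, so 1 GC box can count for both. TATAAA stood in 0 of the 31 member windows, against 13.6% of all windows. CCAAT stood in 1 of the 8 and 10 of the 23, against 37.4% of all windows.

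The scrapings carried colon epithelial RNA in every pool. The mean of 10 colonocyte markers lay at 12.06 to 12.11 log2 in heme pools and at 11.97 to 12.03 log2 in control pools, and Aqp8, a water channel, was the 1 of them called between diets, higher under heme. The mean of 5 goblet cell markers lay at 11.67 (day 14) to 11.95 log2 in heme pools and 11.86 to 11.98 log2 in control pools, with 0 called between diets. On day 14 alone, 3 colonocyte markers were higher and 2 lower, and 2 goblet cell markers were lower. Of all genes, 11.3% were higher and 15.8% lower that day. Other cell types varied by pool. The mean of 8 smooth muscle markers ranged from 7.03 to 8.76 log2 in heme pools and from 7.16 to 9.44 log2 in control pools, lowest on day 2 and highest on day 7 in both diets, and exocrine pancreas markers stood at 9.61 log2 in the heme pool and 9.11 log2 in the control pool of day 2, with every other pool at 5.39 to 5.52 log2. The mean of 8 skeletal muscle markers lay at 5.09 to 5.20 log2 in heme pools and 5.00 to 5.17 log2 in control pools, and 0 of the 4 brown adipocyte markers passed the brightness filter. Of 8 adipocyte markers 6 were tested and 0 called, Cidec coming nearest (0.76 log2, limma adjusted p = 0.0521), with means of 5.87 to 6.04 log2 in heme pools and 5.54 to 5.96 log2 in control pools. The part of these other cells in the results below was not tested beyond leaving out the pools of day 2 or of day 7. In pooled tissue, more cells of a type and more RNA per cell cannot be told apart.

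Under dietary heme, transcripts for carnitine-dependent import, for 2 acyl-CoA dehydrogenases, for 3 core enzymes of the spiral and for the oxidase of the electron transfer flavoprotein were higher. In the comparison of the 4 heme pools with the 5 control pools, 9 of 31 tested members were higher and 0 were lower (limma, Benjamini-Hochberg adjusted p under 0.05 over all genes tested), where 0.595% of all genes tested were called higher and 0.0736% lower. Those 9 were Slc22a5, Slc25a20, Cpt2, Acadvl, Acadl, Hadha, Hadhb, Acaa2 and Etfdh, with increases of 1.24-fold to 1.45-fold. The median log2 fold change over the 31 members was 0.12, against -0.0020 over all genes tested, and 24 members had a positive and 7 a negative estimate. In 16 members every heme pool lay above every control pool, where 3.26% of all genes did so. In 1 member, Oxct1, every heme pool lay below every control pool, where 2.33% of all genes did so. With both pools of day 7 left out, 0 members and 0 genes in all passed the test in limma, 1567 genes having an unadjusted p under 0.05, and the 9 members kept log2 fold changes of 0.30 to 0.48 with adjusted p of 0.0565 to 0.113. Without the control pool of day 4 the count was 5 members, and without the heme pool of day 2 it was 14. The number of all genes called higher moved as well, from 89 to 30 and to 172 in these fits.

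**Figure D1:**
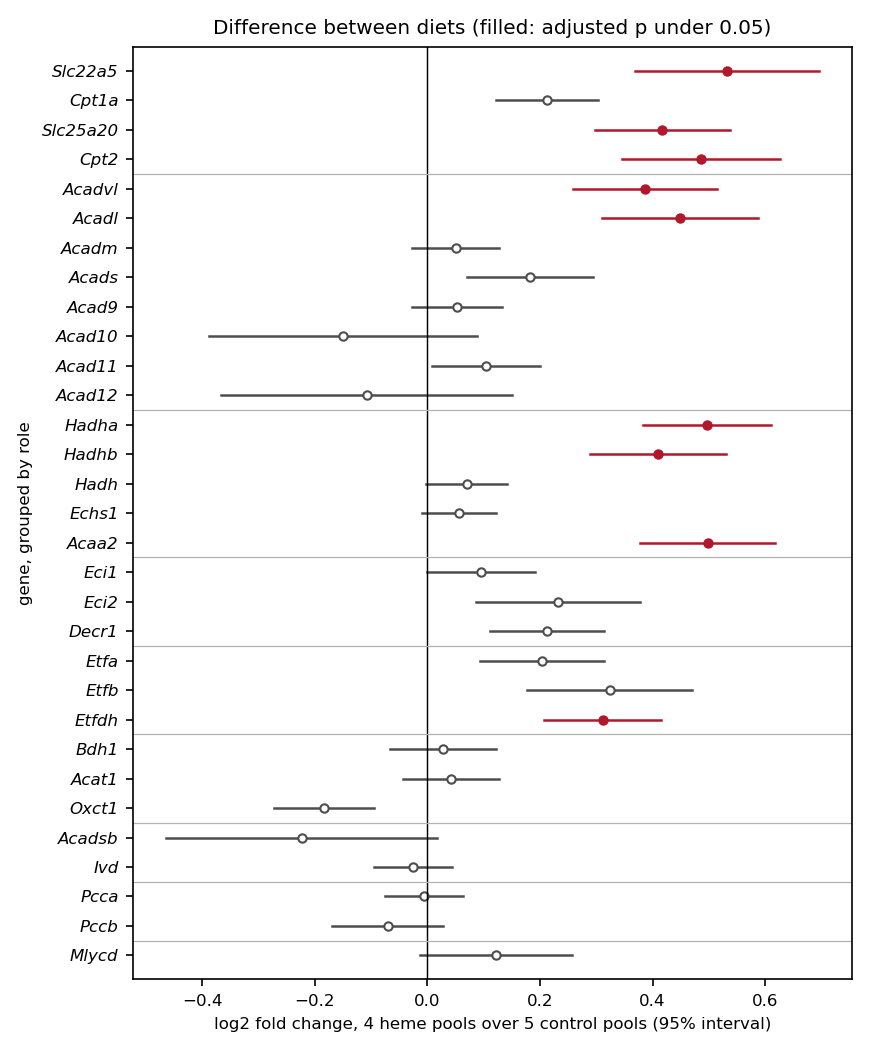
Log2 fold change of each tested member between 4 heme pools and 5 control pools (x axis, with its 95% interval from limma), with genes grouped by role down the page and filled points for adjusted p under 0.05. The 9 filled points lie between 0.31 (Etfdh) and 0.53 (Slc22a5). All of them belong to the carnitine shuttle, the long-chain dehydrogenases, the core enzymes or the electron transfer flavoprotein list.

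Carnitine uptake and the carnitine shuttle rose in 3 of 4 tested genes. Slc22a5 (chr11:53864542-53891796), the plasma membrane carnitine transporter OCTN2, measured 8.45, 8.65, 8.79 and 8.65 log2 in the heme pools of days 2, 4, 7 and 14, against 7.95, 8.25, 8.09, 8.11 and 8.09 log2 in the control pools of days 0, 2, 4, 7 and 14. All heme pools lay above all control pools, and the difference was 0.53 ± 0.073 log2 (SE), or 1.45-fold (limma adjusted p = 0.0113). The call was lost with day as a replicate block (adjusted p = 0.0583) and without the control pool of day 4 (adjusted p = 0.0532). Slc25a20 (chr9:108662136-108684642), the carnitine/acylcarnitine translocase of the inner membrane, measured 11.81, 11.76, 11.98 and 11.95 log2 in heme pools of the same 4 days, against 11.54, 11.42, 11.37, 11.45 and 11.53 log2 in control pools of the same 5 days. The gap between the lowest heme pool and the highest control pool exceeded the range of the control pools, and the difference was 0.42 ± 0.054 log2 (SE, limma adjusted p = 0.00837). Cpt2 (chr4:107903982-107923589), which returns acyl groups to CoA inside the mitochondrion, measured 9.20, 9.26, 9.43 and 9.52 log2 under heme, against 8.81, 8.94, 8.84, 8.86 and 8.87 log2 under control. Its heme values were higher at each later day, and it differed by 0.49 ± 0.063 log2 (SE, limma adjusted p = 0.00841).

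Cpt1a (chr19:3322326-3385735), the outer membrane carnitine palmitoyltransferase that commits acyl-CoA to import, measured 10.85, 10.92, 10.99 and 10.91 log2 in heme pools, against 10.69, 10.73, 10.66, 10.80 and 10.63 log2 in control pools. Its groups did not overlap either, but the estimate of 0.21 log2 (95% interval 0.12 to 0.30) missed the threshold (limma adjusted p = 0.0521). It passed when the arrays were centred on their medians (adjusted p = 0.0292), when the stricter brightness filter was used (0.0388), without the control pool of day 7 (0.0388) or without the heme pool of day 2 (0.0270).

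Of the 8 dehydrogenases that open each turn of the spiral, 2 were higher, Acadvl and Acadl, which act on long chains. Acadl (chr1:66830839-66863309), long-chain acyl-CoA dehydrogenase, measured 10.52, 10.63, 10.84 and 10.82 log2 in heme pools, against 10.22, 10.30, 10.20, 10.26 and 10.28 log2 in control pools. The control pools spanned a narrow band that no heme pool entered, and the difference was 0.45 ± 0.062 log2 (SE, limma adjusted p = 0.0114), lost without the control pool of day 4 (adjusted p = 0.0532). Acadvl (chr11:70010183-70015428), the membrane-bound very long-chain enzyme, averaged 10.08 ± 0.100 log2 in heme pools (SD, n = 4) and 9.69 ± 0.092 log2 in control pools (SD, n = 5), a difference of 0.39 log2 (limma adjusted p = 0.0165). It held its call in 5 of the 9 fits that left out 1 pool, losing it without the control pool of day 4 or 14 or the heme pool of day 7 or 14 (adjusted p 0.0539 to 0.0686).

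Acadm and Acads, the medium-chain and short-chain enzymes, were not called. Acadm (chr3:153922353-153944643) ranged from 10.84 to 10.92 log2 in heme pools and from 10.79 to 10.93 log2 in control pools, so the groups overlapped almost fully, and its estimate was 0.05 log2 (95% interval -0.03 to 0.13, limma adjusted p = 0.445). Acads, which takes butyryl-CoA, had an estimate of 0.18 log2 (adjusted p = 0.156), with overlapping groups at 10.07 to 10.27 log2 under heme and 9.94 to 10.10 log2 under control. Acad9, better known as an assembly factor of respiratory complex I, and Acad11 had estimates of 0.05 and 0.10 log2, and Acad10 and Acad12 had -0.15 and -0.11 log2. The intervals of Acadl (0.31 to 0.59 log2) and Acadm (-0.03 to 0.13 log2) did not meet, though the difference between both genes was not itself tested.

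Among the 5 core enzymes, Hadha, Hadhb and Acaa2 were higher, while Hadh and Echs1 were not called. Hadha (chr5:30119423-30154980), the alpha subunit of the trifunctional protein with long-chain hydratase and hydroxyacyl-CoA dehydrogenase activity, measured 11.15, 11.33, 11.40 and 11.33 log2 in heme pools, against 10.77, 10.91, 10.78, 10.78 and 10.80 log2 in control pools. It was clear of the control pools on every day and differed by 0.50 ± 0.051 log2 (SE), or 1.41-fold (limma adjusted p = 0.00601). Hadhb (chr5:30155253-30184593), the beta subunit with thiolase activity, measured 11.44, 11.59, 11.73 and 11.59 log2 under heme, against 11.09, 11.23, 11.17, 11.25 and 11.17 log2 under control. Both subunits thus peaked on day 7 of heme and were lowest on day 2, with Hadhb 0.41 ± 0.054 log2 higher (SE, limma adjusted p = 0.00930). A second Hadhb probeset gave the same difference, 0.41 log2. Both probesets moved together from pool to pool, and the positions of their probes were not at hand. Whether both lie at this gene, or read it independently of each other, was not tested.

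Acaa2 (chr18:74779212-74806207), the 3-ketoacyl-CoA thiolase of shorter chains, measured 10.56, 10.58, 10.75 and 10.61 log2 in heme pools, against 10.13, 10.00, 10.07, 10.21 and 10.21 log2 in control pools. It had the largest estimate of all members on day 2 and differed by 0.50 ± 0.054 log2 over all days (SE, limma adjusted p = 0.00601). Hadh, the hydroxyacyl-CoA dehydrogenase of shorter chains, had an estimate of 0.07 log2 (95% interval -0.0022 to 0.14, limma adjusted p = 0.304). Echs1, the hydratase of shorter chains, had 0.06 log2 (95% interval -0.01 to 0.12, limma adjusted p = 0.351). In both of these genes the heme pools lay above the control pools, by margins smaller than those of Hadha, Hadhb or Acaa2.

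**Figure D2:**
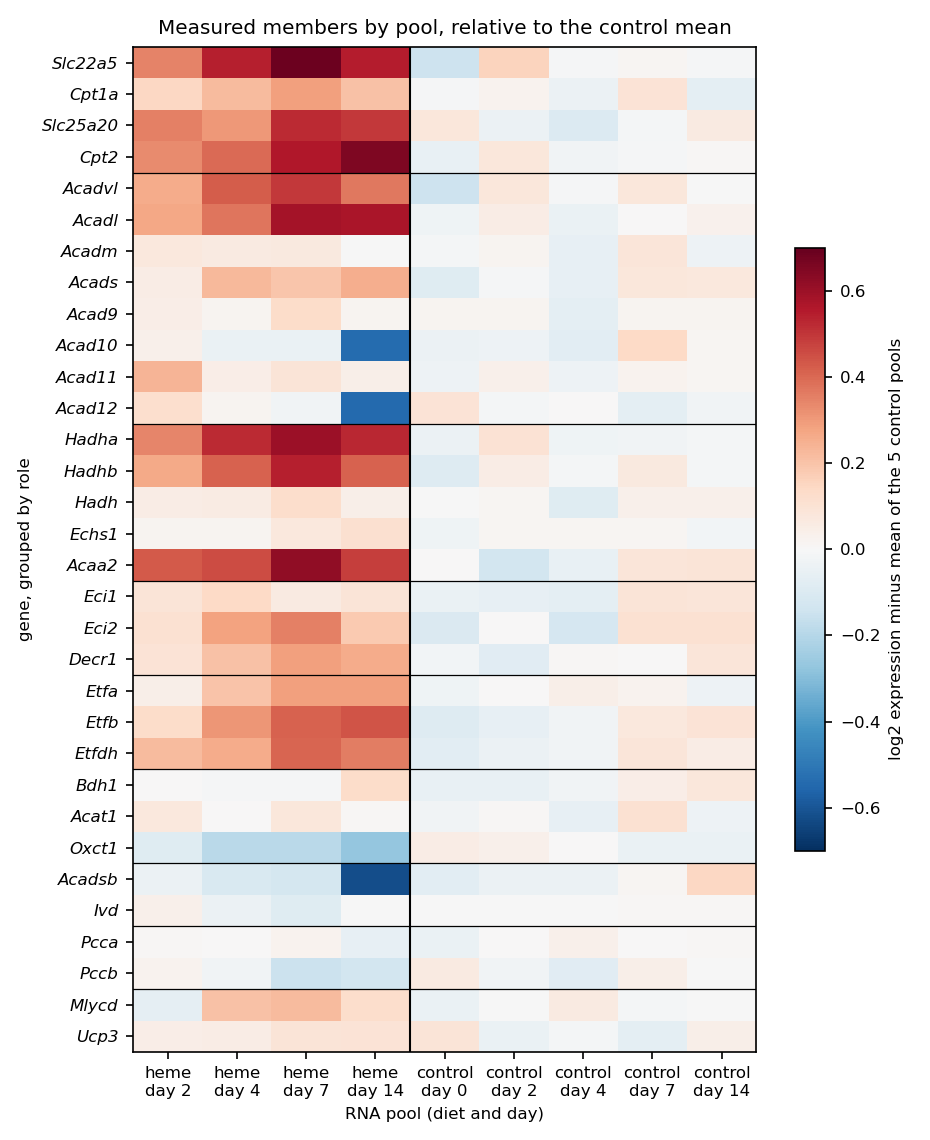
Log2 expression of the 32 measured members (rows, grouped by role) in the 4 heme pools and the 5 control pools (columns), drawn as the difference from the mean of the control pools. Slc22a5, Cpt2, Acadl, Hadha, Hadhb and Acaa2 are reddest on heme day 7 or 14, and Acad10, Acad12 and Acadsb are deep blue on heme day 14 alone.

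The auxiliary enzymes of unsaturated fatty acids, Eci1, Eci2 and Decr1, gave 0 calls of 3. Their estimates were 0.10, 0.23 and 0.21 log2, with limma adjusted p of 0.294, 0.162 and 0.0818. Decr1, the 2,4-dienoyl-CoA reductase, was the 1 of the 3 whose heme pools (9.27 to 9.46 log2) all lay above the control pools (9.10 to 9.25 log2).

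The electron transfer flavoprotein and its oxidase, which carry electrons from the acyl-CoA dehydrogenases to ubiquinone, gave 1 call of 3. Etfdh (chr3:79603788-79628767), the oxidase, averaged 10.81 ± 0.085 log2 in heme pools (SD, n = 4) and 10.50 ± 0.066 log2 in control pools (SD, n = 5), a difference of 0.31 log2 (limma adjusted p = 0.0172). Its call was lost in 5 of the 9 fits that left out 1 pool, namely the control pools of days 0, 2 and 4 and the heme pools of days 7 and 14 (adjusted p 0.0524 to 0.0712). The Etfa and Etfb subunits had estimates of 0.20 log2 (adjusted p = 0.121) and 0.32 log2 (adjusted p = 0.0711), and neither overlapped between diets, though the lowest heme pool and the highest control pool of Etfa stood level at 10.38 log2. Etfb passed with day as a replicate block (0.30 log2, adjusted p = 0.0393), and both passed with the pools of day 2 left out (adjusted p = 0.0304 for Etfa and 0.0318 for Etfb).

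Of the ketone body enzymes, 0 of 3 were called between diets. Bdh1 (chr16:31422297-31458901), which interconverts acetoacetate and beta-hydroxybutyrate, measured 9.76, 9.75, 9.75 and 9.89 log2 in heme pools, against 9.71, 9.71, 9.74, 9.80 and 9.84 log2 in control pools. The groups overlapped, with an estimate of 0.03 log2 (95% interval -0.07 to 0.12, limma adjusted p = 0.743). Acat1 (chr9:53580522-53610350), the mitochondrial acetoacetyl-CoA thiolase, measured 10.00, 9.93, 10.01 and 9.93 log2 in heme pools, against 9.91, 9.94, 9.87, 10.03 and 9.89 log2 in control pools. It overlapped as well, with an estimate of 0.04 log2 (95% interval -0.04 to 0.13, limma adjusted p = 0.564).

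Oxct1 (chr15:4026428-4155344), the succinyl-CoA transferase through which tissues use ketone bodies, measured 9.96, 9.86, 9.86 and 9.78 log2 in heme pools, against 10.10, 10.09, 10.05, 10.00 and 10.01 log2 in control pools. It was the 1 member with every heme pool below every control pool. Its estimate of -0.18 log2 (95% interval -0.27 to -0.09) missed the threshold (limma adjusted p = 0.0874), and passed without the heme pool of day 2 (-0.22 log2, adjusted p = 0.0234).

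Enzymes of branched-chain and odd-chain acyl groups gave 0 calls of 4. Ivd, isovaleryl-CoA dehydrogenase, had an estimate of -0.02 log2, and Pcca and Pccb, the propionyl-CoA carboxylase subunits, had -0.01 and -0.07 log2. Acadsb, short/branched-chain acyl-CoA dehydrogenase, had the lowest estimate among the members, -0.22 log2 (limma adjusted p = 0.318). Its value rested on 1 pool, described with day 14 below.

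Mlycd, malonyl-CoA decarboxylase, which removes the inhibitor of Cpt1, had an estimate of 0.12 log2 (limma adjusted p = 0.329). Ucp3, an uncoupling protein of muscle and brown fat, measured 4.70, 4.70, 4.74 and 4.75 log2 in heme pools, against 4.74, 4.60, 4.64, 4.58 and 4.69 log2 in control pools. Its mean over all pools lay under the filter of 4.716 log2, so it was not tested, and the values of both diets overlapped.

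The members were then compared day by day, each heme pool being set against the 5 control pools, whose spread it was assumed to share. On day 2, 0 of 31 members and 0% of all genes were called in limma, while 10 members and 1385 genes had an unadjusted p under 0.05. The median over members was 0.09 log2 and 28 estimates were positive, the highest being Acaa2 at 0.43 log2, Slc25a20 at 0.35 log2 and Slc22a5 at 0.35 log2 (adjusted p 0.357 to 0.415). The lowest were Oxct1 at -0.09, Mlycd at -0.06 and Acadsb at -0.04 log2 (adjusted p 0.680 to 0.998). The exocrine pancreas markers at 9.61 log2 in the day 2 heme pool and 9.11 log2 in the day 2 control pool stand beside these values. Without that control pool Hadha passed on day 2, so the count was 1, among 16 of all genes called higher.

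On day 4, 0 of 31 members were called in limma, against 0.00669% of all genes higher and 0% lower, while 17 members and 1049 genes had an unadjusted p under 0.05. Members had a median of 0.20 log2 and 25 positive estimates. Slc22a5 (0.55 log2), Hadha (0.52 log2) and Acaa2 (0.46 log2) were highest, with adjusted p of 0.152 to 0.331, and Oxct1 (-0.19 log2), Acadsb (-0.11 log2) and Acad10 (-0.05 log2) were lowest, with adjusted p of 0.515 to 1.00. After quantile normalization over genes, Hadha and Acadl passed on day 4, where 8 of all genes were called higher and 3 lower.

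On day 7, 9 of 31 members were higher and 0 lower, where 0.883% of all genes were higher and 0.749% lower. Those were Slc22a5, Slc25a20, Cpt2, Acadl, Hadha, Hadhb, Acaa2, Etfdh and Etfa, at 0.29 log2 (Etfa) to 0.69 log2 (Slc22a5), with limma adjusted p of 0.00966 to 0.0452. Of the 9 members called over all days, 8 had their highest heme value on day 7, and Cpt2 had it on day 14. The day 7 count depended on the control pools: it was 3, 3, 1, 0 and 0 without the control pool of day 0, 2, 4, 7 and 14 in turn. This held for all genes too, where 132 were called higher with every control pool, and 39, 9, 13, 8 and 3 in these fits. The smooth muscle markers were also highest on day 7, at 8.76 log2 in the heme pool and 9.44 log2 in the control pool, while Hadha measured 11.40 log2 in that heme pool and 10.78 log2 in that control pool. Between the pools of that day alone, Hadha differed by 0.62 log2, Slc22a5 by 0.68 log2 and Acadl by 0.58 log2.

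**Figure D3:**
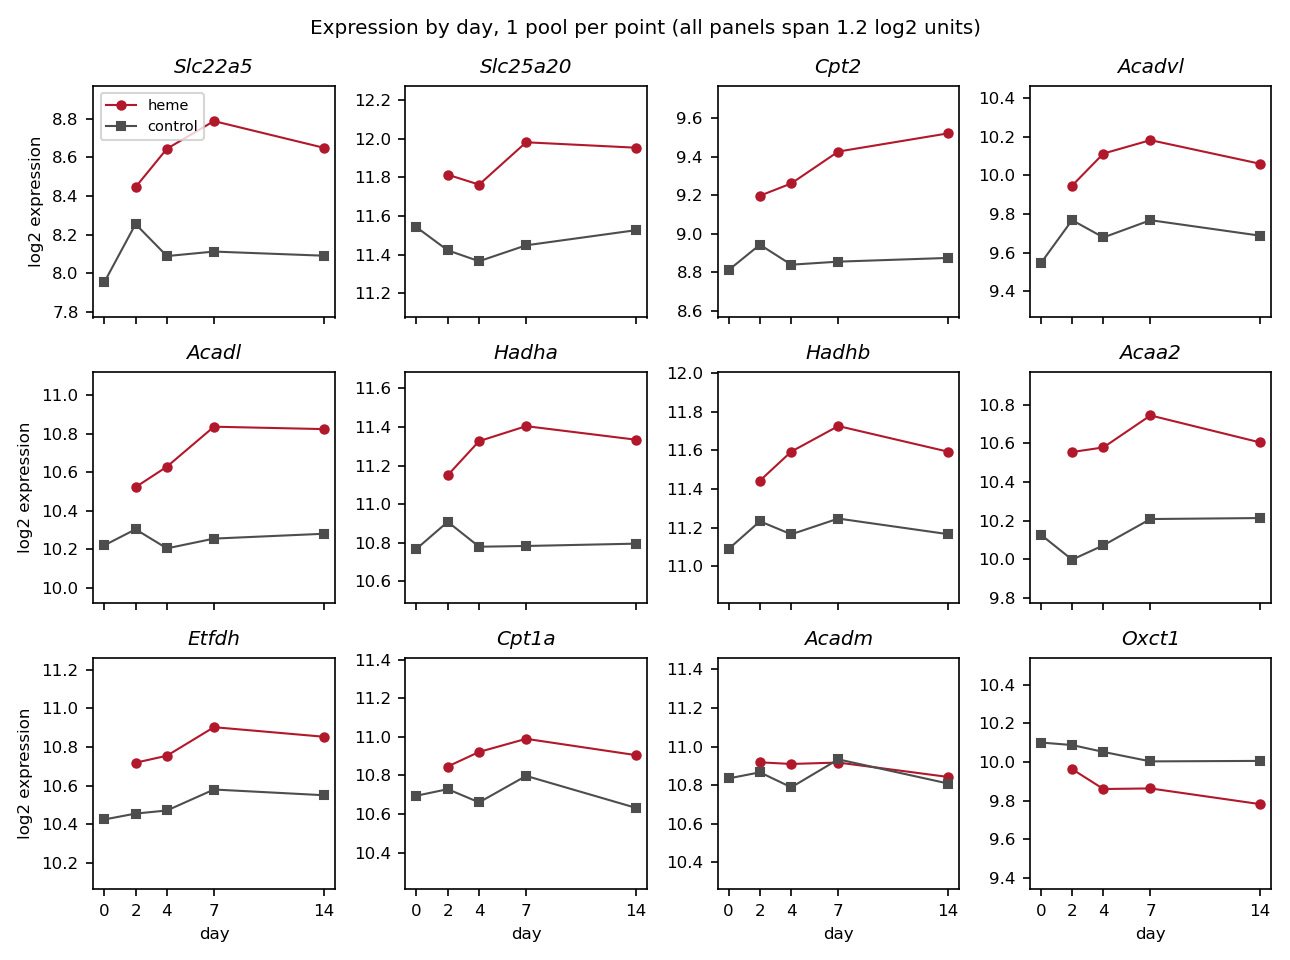
Log2 expression (y axis, each panel spanning 1.2 log2 units) by day (x axis) in heme pools (red circles) and control pools (grey squares), 1 pool per point, for the 9 members higher under heme and for Cpt1a, Acadm and Oxct1. Heme pools lie above control pools at each shared day for the 9 members and Cpt1a, the lines of Acadm cross, and Oxct1 lies below control at each shared day.

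On day 14, 13 of 31 members were higher, where 11.3% of all genes were higher, and 4 of 31 were lower, a share close to the 15.8% of all genes that were lower. The 13 were the 9 members called over all days and Acads, Decr1, Etfa and Etfb. Cpt2 had the highest estimate (0.66 log2, limma adjusted p = 0.00303), followed by Acadl (0.57 log2, adjusted p = 0.00263), Slc22a5 (0.55 log2, adjusted p = 0.0138) and Hadha (0.53 log2, adjusted p = 0.00487). All 3 genes of the electron transfer flavoprotein list were higher, Etfb by 0.44, Etfdh by 0.36 and Etfa by 0.29 log2 (adjusted p 0.00755 to 0.0131). Acads (0.25 log2, adjusted p = 0.0437) and Decr1 (0.26 log2, adjusted p = 0.0245) were the smallest of these increases. Acads lost its call whichever control pool was left out (adjusted p 0.0514 to 0.0908), Decr1 when this was the pool of day 0 or 7 (0.0529 and 0.0562), and Acadvl when it was that of day 4 or 14 (0.0564 and 0.0580).

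The 4 members lower on day 14 were Acadsb, Acad12, Acad10 and Oxct1. Acadsb (chr7:131410601-131446211) measured 7.24, 7.17, 7.16 and 6.66 log2 in the heme pools of days 2, 4, 7 and 14, against 7.21, 7.24, 7.24, 7.29 and 7.42 log2 in the control pools of days 0, 2, 4, 7 and 14, and was lower on day 14 by -0.62 log2 (limma adjusted p = 0.00770). Acad10 (chr5:121621026-121660603) measured 6.96, 6.88, 6.88 and 6.39 log2 under heme, against 6.89, 6.89, 6.86, 7.07 and 6.94 log2 under control, with a day 14 difference of -0.54 log2 (adjusted p = 0.0102). Acad12 (chr5:121598277-121618938) measured 6.61, 6.52, 6.47 and 5.96 log2 under heme, against 6.60, 6.49, 6.50, 6.43 and 6.48 log2 under control, and also differed by -0.54 log2 on day 14 (adjusted p = 0.00683). In these 3 genes the day 14 heme pool stood far below the other 8 pools, which lay close together. Acad10 and Acad12 are related genes that neighbour each other on chromosome 5, and whether their probesets respond to each other's transcripts was not tested. Oxct1 differed by -0.27 log2 on day 14 (adjusted p = 0.0134), as the last step of values that were already below control on day 2.

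**Figure D4:**
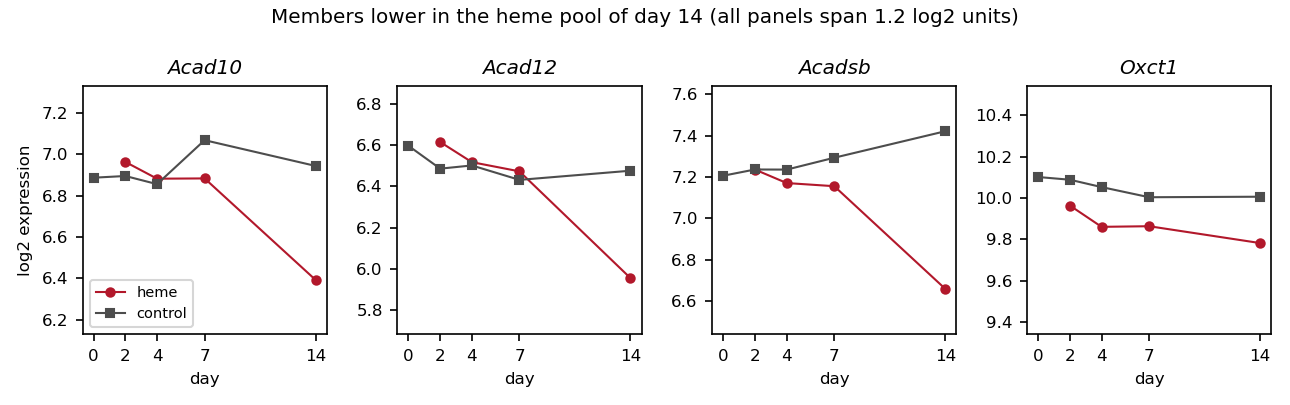
Log2 expression (y axis, each panel spanning 1.2 log2 units) by day (x axis) in heme pools (red circles) and control pools (grey squares), 1 pool per point, for the 4 members lower on heme day 14. Acad10, Acad12 and Acadsb drop in the day 14 heme pool alone, to 6.39, 5.96 and 6.66 log2, while Oxct1 lies below control at each of the 4 shared days.

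Whether the diet difference itself changed with time was tested as the difference on days 7 and 14 minus that on days 2 and 4. Here 0 of 31 members and 0% of all genes passed in limma, while 5 members and 990 genes had an unadjusted p under 0.05. Cpt2 (0.27 log2), Slc22a5 (0.24 log2) and Acadl (0.24 log2) had the highest and Acadsb (-0.42 log2), Acad10 (-0.42 log2) and Acad12 (-0.31 log2) the lowest estimates, with adjusted p of 0.658 to 0.781. With 2 pools per diet and period, an early and a late response of these genes were not separated at this number of pools. Heme lay above the control pool of the same day on all 4 days in 18 of 31 members, where 10.9% of all genes did so. It lay below on all 4 days in 2 members, Oxct1 and Acadsb, where 12% of all genes did so. For Acadsb the day 2 difference was only -0.0005 log2.

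On the control diet alone no member passed a test for change over time. The slope of the 5 control pools on log2(day + 1) passed in 0 of 31 members and 0% of all genes in limma, with 6 members and 1073 genes at an unadjusted p under 0.05. The highest slopes were Eci2 (0.053), Etfb (0.052) and Acadsb (0.050) and the lowest Acad12 (-0.034), Oxct1 (-0.028) and Pccb (-0.011), in log2 units per doubling of day + 1 (adjusted p 0.677 to 0.963).

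Genes around the pathway were listed beside the members, 98 of them, of which 91 were matched. In the same diet comparison, peroxisomal oxidation, which shortens very long chains outside the mitochondrion, had 10 of 15 tested genes higher and 0 lower, with a median of 0.37 log2. The count was 6 without the control pool of day 4 and 6 without the heme pool of day 7, and 7 with day as a replicate block. Of all genes, 30, 35 and 69 were called higher in those fits. Ehhadh, the peroxisomal bifunctional enzyme, measured 9.59, 9.86, 10.28 and 10.22 log2 in heme pools, against 8.71, 8.86, 8.64, 9.00 and 8.91 log2 in control pools, a difference of 1.16 log2 (limma adjusted p = 0.00601). Acaa1b, a peroxisomal thiolase, was higher by 1.56 log2 (adjusted p = 0.00644), and Acox2, the branched-chain acyl-CoA oxidase, by 0.83 log2 (adjusted p = 0.0316). The smallest of the called increases were Decr2 (0.22 log2), Acaa1a (0.35 log2) and Ech1 (0.37 log2), with adjusted p of 0.00837 to 0.0466. Acox2 and Decr2 each kept their call in 1 and Acaa1a in 2 of the 9 fits that left out 1 pool, and the other 3 named genes kept theirs in all 9.

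The remaining mitochondrial acyl-CoA and ketone genes gave 2 calls of 25, both higher, and a median of 0.02 log2. With 1 pool left out there were 1 to 3 calls, 1 of them without the control pool of day 0, 4, 7 or 14 or the heme pool of day 7 or 14. Acot2, a mitochondrial acyl-CoA thioesterase, measured 8.65, 9.05, 9.63 and 9.54 log2 in heme pools, against 7.80, 7.96, 7.97, 7.93 and 7.86 log2 in control pools, a difference of 1.31 log2 (limma adjusted p = 0.00867). Acacb, acetyl-CoA carboxylase 2, whose product malonyl-CoA inhibits Cpt1, was higher by 0.68 log2 (adjusted p = 0.0187), a call kept in 3 of the 9 fits that left out 1 pool. Acot2 had a larger estimate than any of the 31 members.

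Among 16 regulators of fatty acid oxidation, 2 were higher and 0 lower, with a median of 0.02 log2. Pdk4, the kinase that switches off pyruvate dehydrogenase, measured 9.44, 9.62, 10.12 and 10.03 log2 in heme pools, against 7.62, 8.34, 7.63, 8.28 and 7.74 log2 in control pools, a difference of 1.88 log2 (limma adjusted p = 0.00601). Creb3l3, a transcription factor known from liver for control of lipid metabolism, was higher by 1.35 log2 (adjusted p = 0.00601). Ppara itself, the PPAR best known for this pathway, overlapped between diets at 8.20 to 8.58 log2 in heme pools and 8.26 to 8.52 log2 in control pools, with an estimate of 0.04 log2 (adjusted p = 0.811).

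The citric acid cycle (0 of 16 genes) and the respiratory chain (0 of 19 genes), which take up the products of the spiral, gave no call in limma, with medians of 0.08 and 0.11 log2. At an unadjusted p under 0.05 there were 9 and 14 genes of these lists, and 2547 of all 14953 genes tested. Every estimate in both lists was positive, where 7332 of all genes had a positive estimate. Without the heme pool of day 2, 2 citric acid cycle genes and 3 respiratory chain genes were called higher. In that fit 172 of all genes were called higher and 79 lower. All calls of these neighbouring lists were lost with both pools of day 7 left out, as were those of all genes.

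**Figure D5:**
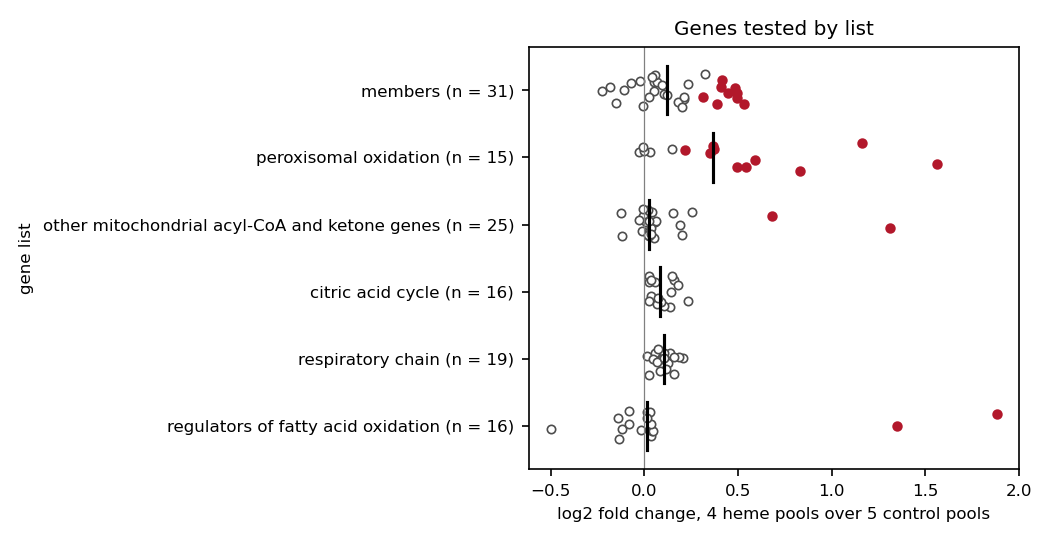
Log2 fold change between 4 heme pools and 5 control pools (x axis) for the tested members and for 5 lists of neighbouring genes (rows), 1 point per gene, filled for adjusted p under 0.05, with a bar at the median of each list. The members lie between -0.22 and 0.53, the peroxisomal list reaches 1.56, and the citric acid cycle and respiratory chain have no filled point.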

How the data were processed

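RNA pools from colon scrapings were hybridised to 1 Affymetrix array each. The authors used RMA, per the submitters' processing notes. Its version was not given in the sources used here. What they deposited is 1 log2 expression value per probeset and pool. This method normalizes the arrays together, so a shift common to all genes cannot be seen, and its summary step leaves equal values in several arrays: equal values in at least 2 control pools were found for 4 measured members and in at least 2 heme pools for 2, which understates their spread. Array medians were 5.895 to 5.963 log2. Precision is limited by how few arrays there are. All columns were mapped to a pool by name.

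Of 35556 probesets, 21789 had 1 gene symbol in the platform annotation, 1621 had several and 12146 were unnamed here. Probesets with several symbols were left out. For the 999 genes with several probesets the brightest was used, and genes with a mean at or above the 25th percentile (4.716 log2) were tested. Linear models with an intensity trend were fitted in limma 3.58.1 (R 4.3.3), with Benjamini-Hochberg adjustment over 14953 genes. The diet comparison was also run on simulated arrays, with results not given here. Tables were made with Python 3.11.15 and figures with matplotlib 3.10.9. Alternatives changed the filter, the choice of probeset, the normalization, the variance trend, the day as a replicate block and the pools included.

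Members, lists and tests were chosen with earlier results of these data known. By rule, every pool's value is given for members called between diets with a log2 fold change of at least 0.4 and for Cpt1a, Cpt1b, Ucp2, Ucp3, Bdh1, Oxct1 and Acat1. The 4 members lower on day 14, Ehhadh, Acot2 and Pdk4 were given the same way after their values were seen. Elsewhere the called members are named or, where there were none, the 3 highest and 3 lowest, and in each neighbouring list the called genes with the 3 highest and 3 lowest fold changes, plus Ppara and Pdk4. Some listed genes are not reported here. Pools of the same day shared a number but not animals. The deviations of the same-day pools from their diet means correlated across genes at 0.651, -0.00493, 0.333 and 0.168 on days 2, 4, 7 and 14. Between heme and control pools of different days the highest correlation was 0.422, so only day 2 exceeded it. The main comparison did not take day as pairing the pools, though the pools of day 2 shared variation, and day as a replicate block was an alternative.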

Additional observations from a re-analysis of the deposited data

Results flagged for a closer look

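In 64 groups of 4 or 5 pools, 7 held a pool set apart from the rest of its group, by a gap to its neighbour that was a larger part of the group's whole range than Dixon's 95% critical value. Chance gives about 1 such group in 20 for independent values of 1 normal distribution. Pools here differ in day and some hold equal values, so that rate may not apply, and the rate over all genes was not computed. In 4 of the 7 the pool set apart was the heme pool of day 14: Acad10 with a gap of 0.858 of the range (6.39 log2, against 6.88 to 6.96 in the other heme pools), Acadsb with 0.861 (6.66 log2, against 7.16 to 7.24), Acadm with 0.889 (10.84 log2, against 10.91 to 10.92) and Bdh1 with 0.925, this one on the high side (9.89 log2, against 9.75 to 9.76). Hadh was set apart in the heme pool of day 7, with a gap of 0.839 on the high side (11.64 log2, against 11.56 to 11.57). Among control pools, Hadha was set apart on day 2 by 0.805 (10.91 log2, against 10.77 to 10.80), and Acad9 on day 4 by 1.0 (8.39 log2, the other 4 pools holding the equal value of 8.48).

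In 2 members heme lay above the control pool of the same day on days 2 and 4 and below it on days 7 and 14, a late minus early change of -0.415 log2 in Acad10 and -0.214 log2 in Pccb. Neither passed in limma (adjusted p = 0.774 for Acad10 and 0.610 for Pccb).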

How the results depend on the processing

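The count of 9 members higher under heme was 9 to 12 under the other filters, probeset choice, normalizations and variance trend, with the pools of day 2 left out and with day as a replicate block (9, Slc22a5 lost and Etfb gained). It was 0 with both pools of day 7 left out. Leaving out 1 pool gave 5 to 14 members higher and 0 to 1 lower, and 30 to 172 of all genes higher and 0 to 79 lower. Of the 9, Slc25a20, Cpt2, Hadha, Hadhb and Acaa2 kept their call in all 9 such fits. On day 2, leaving out 1 control pool gave 0 to 1 members, and 0 to 16 of all genes. On day 4, quantile normalization gave 2 members, and 8 of all genes higher and 3 lower. On day 7, 4 were higher with no brightness filter and 4 with no variance trend, and leaving out 1 control pool gave 0 to 3. Of all genes, 54, 67 and 3 to 39 were called higher in these day 7 fits. On day 14 the counts were 11 to 15 higher and 4 lower in every alternative run. Signs turned, with adjusted p of 0.764 or more, for Acad12 (-0.183 to 0.0367 log2 with 1 pool left out), Bdh1 (-0.0064 to 0.0479 log2 with 1 pool left out) and Pcca (0.0181 log2 after centring, 0.0194 after quantile normalization, and -0.0171 to 0.0114 with 1 pool left out). The cause was not tested. With 1 pool per diet and day, animal variation is not measured, and a day is not told apart from its pool.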

Other observations

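Ppargc1a, a coactivator of mitochondrial gene programmes that was on the regulator list but is named here only after its values were seen, measured 9.01, 8.73, 8.43 and 7.91 log2 in the heme pools of days 2, 4, 7 and 14, against 9.03, 9.16, 8.96, 8.99 and 8.95 log2 in the control pools of days 0, 2, 4, 7 and 14. It was lower at each later day of heme, while the control pools stayed within a narrow band. The diet estimate was -0.50 log2 (limma adjusted p = 0.230), and on day 14 it was lower by -1.11 log2 (adjusted p = 0.00251). On that day the respiratory chain list had 11 of 19 genes higher and 0 lower, and the citric acid cycle list 7 of 16 higher and 0 lower, where 11.3% of all genes were higher and 15.8% lower. Over the 4 heme pools, Aqp8, the colonocyte water channel, measured 12.06, 11.97, 12.36 and 12.43 log2, against 11.65, 11.55, 11.42, 11.54 and 11.57 log2 in the control pools (0.66 log2, adjusted p = 0.0113).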
